A study of Arabidopsis thaliana with 24 samples.

Results

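The transcript response of 24-day-old Arabidopsis thaliana cpd plants to brassinolide (BL) was described from 6 of the 24 libraries of the series. Members were the libraries that the labels give as 24-day-old, genotype cpd, and either treated with BL (3 libraries) or not treated (3 libraries). The cpd genotype, whose allele is not named in the labels, carries a defect in CPD, a cytochrome P450 of brassinosteroid (BR) synthesis, and untreated and treated plants share it. A second genotype, bri1-701 brl1 brl3 in the design text (the genotype label spells the first allele brl1-701), called the triple mutant here, is mutated in 3 related receptor genes, of which BRI1 encodes the principal receptor of the hormone. It was sampled at 24 days with and without BL (3 libraries each), and cpd was also sampled at 7 days with and without BL (3 libraries each). Tissue was labelled as seedling throughout, and the sources used here give neither the dose of BL nor how long it was applied. Whether libraries of a group stem from separately grown plants is not said either, and p-values then measure only how far these libraries differ, which may be technical.

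Brassinosteroids are growth-promoting steroid hormones of plants, and BL is the most active of them. BRI1 binds the hormone at the cell surface together with a co-receptor of the SERK family, and the signal ends in active BES1 and BZR1, a pair of related transcription factors. These factors are known to repress genes of BR synthesis and to activate genes of cell expansion, such as those of wall-loosening enzymes and growth-promoting HLH proteins. A plant that cannot complete BR synthesis is a dwarf and can still respond to supplied hormone.

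Sequence near the start of the gene is shown for members that stood at the ends of the response and carried elements known from work on these factors. BEH2 and ACS11 were among the largest falls. PRE6, SAUR9 and LRX2 were among the largest rises. Each window holds 250 bases before and 50 from the annotated gene start (RefSeq, TAIR10.1), read in the direction of the gene. Capitals mark the BR response element (CGTGTG or CGTGCG, either strand), known as a binding sequence of BZR1, in the falling genes, and the E-box CATGTG, known as a binding sequence of BES1, on either strand in the rising genes.
BEH2: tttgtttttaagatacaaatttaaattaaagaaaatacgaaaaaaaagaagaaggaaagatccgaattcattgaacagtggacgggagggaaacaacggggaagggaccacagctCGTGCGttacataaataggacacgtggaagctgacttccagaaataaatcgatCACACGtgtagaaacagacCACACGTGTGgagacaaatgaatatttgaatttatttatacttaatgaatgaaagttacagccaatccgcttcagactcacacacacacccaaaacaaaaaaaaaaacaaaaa
ACS11: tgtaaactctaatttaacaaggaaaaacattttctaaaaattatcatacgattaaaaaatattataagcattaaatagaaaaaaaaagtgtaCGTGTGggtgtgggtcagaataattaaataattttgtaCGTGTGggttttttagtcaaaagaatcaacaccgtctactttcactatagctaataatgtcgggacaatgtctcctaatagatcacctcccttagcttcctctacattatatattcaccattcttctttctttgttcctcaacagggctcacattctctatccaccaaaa
PRE6: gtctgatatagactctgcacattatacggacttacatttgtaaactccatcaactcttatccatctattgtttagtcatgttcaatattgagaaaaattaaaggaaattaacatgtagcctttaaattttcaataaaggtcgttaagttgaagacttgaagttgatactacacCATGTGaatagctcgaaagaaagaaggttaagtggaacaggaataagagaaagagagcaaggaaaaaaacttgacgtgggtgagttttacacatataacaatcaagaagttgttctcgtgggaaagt
SAUR9: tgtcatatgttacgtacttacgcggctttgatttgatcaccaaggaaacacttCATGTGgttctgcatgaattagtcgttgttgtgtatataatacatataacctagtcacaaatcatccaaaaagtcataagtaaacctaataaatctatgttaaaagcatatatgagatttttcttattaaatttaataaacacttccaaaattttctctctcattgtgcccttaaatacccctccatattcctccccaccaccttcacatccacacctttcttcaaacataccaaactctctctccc
LRX2: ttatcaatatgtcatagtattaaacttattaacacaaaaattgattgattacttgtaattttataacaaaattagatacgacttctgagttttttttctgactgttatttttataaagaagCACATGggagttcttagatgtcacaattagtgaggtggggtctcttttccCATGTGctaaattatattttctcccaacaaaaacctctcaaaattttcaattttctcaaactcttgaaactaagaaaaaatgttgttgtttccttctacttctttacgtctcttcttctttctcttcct
The windows lie at chr4:17334306-17334605 on the minus strand for BEH2, and on the plus strand at chr4:4886712-4887011 for ACS11, chr1:9350910-9351209 for PRE6, chr4:17089684-17089983 for SAUR9 and chr1:23112683-23112982 for LRX2. The BEH2 window holds 4 copies of the response element, and 3 of them overlap the G-box CACGTG. ACS11 holds 2 copies. PRE6 and SAUR9 hold 1 E-box each, and LRX2 holds 2.

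The 6 libraries held 17954417 to 20563151 counts, so that a count of 0 allows up to 0.146 to 0.167 CPM (counts relative to the size of their library), counting error only. Replicate 3 stood apart from replicates 1 and 2 in both groups. Counts of untreated replicates 1 and 2 differed by 6.15 times the variance that counting gives (chi-square per degree of freedom), against 24.6 and 23.5 for the pairs with replicate 3. In treated plants the values were 8.50, 15.7 and 14.2. Along the first principal component (47.3% of the variance) untreated libraries lay between -35.1 and -23.6 and treated libraries between 23.4 and 37.4, while the second component (25.9%) set replicate 3 of each group below its replicates 1 and 2. The summed level of 14 root markers was 120, 130 and 280 CPM in untreated and 121, 130 and 192 CPM in treated replicates 1, 2 and 3, so it was also highest in replicate 3, and none of the 14 was at 0 in all 6 libraries. Of 11 root markers tested for BL 0 passed in either direction, with a median log2 change of -0.32, and the part of root tissue in the results was not tested. Counts and calls below are also given with replicate 3 left out of every 24-day group where they changed most. Green leaf markers were abundant in all libraries (5096 to 6847 CPM summed over 7 genes), and pollen markers (0.209 to 0.533 CPM over 4 genes) and seed markers (0.792 to 1.5 CPM over 8 genes, 3 of them at 0 in all 6 libraries) were near the limit of detection. In such bulk samples fewer cells of a type and less RNA per cell cannot be told apart.

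With BL, 6 of 7 tested genes of BR synthesis fell in 24-day cpd plants. Of genes tested, 26 of 51 SAUR genes, 13 of 15 tubulins and 14 of 40 arabinogalactan proteins rose. Genes tested are those that passed a filter on low counts, which keeps a gene that is high in a single group. Of 19731 genes tested, 895 rose (4.54%) and 1023 fell (5.18%), or 9.72% in either direction, at a Benjamini-Hochberg adjusted p under 0.05 in the quasi-likelihood test of edgeR. The shares of 4.54% and 5.18% are the background for each count of list members with BL below. A single call in a short list does not describe the list. Changes of at least 2-fold were fewer, with 183 genes higher (0.927%) and 235 lower (1.19%). Blocking on the replicate number gave 1476 (7.48%) and 1574 (7.98%), and leaving out replicate 3 gave 449 (2.28%) and 617 (3.13%), or 5.41% together. Treated and untreated libraries did not overlap for 6262 of all genes tested (31.7%) and for 1910 of the 1918 genes called.

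**Figure D1:**
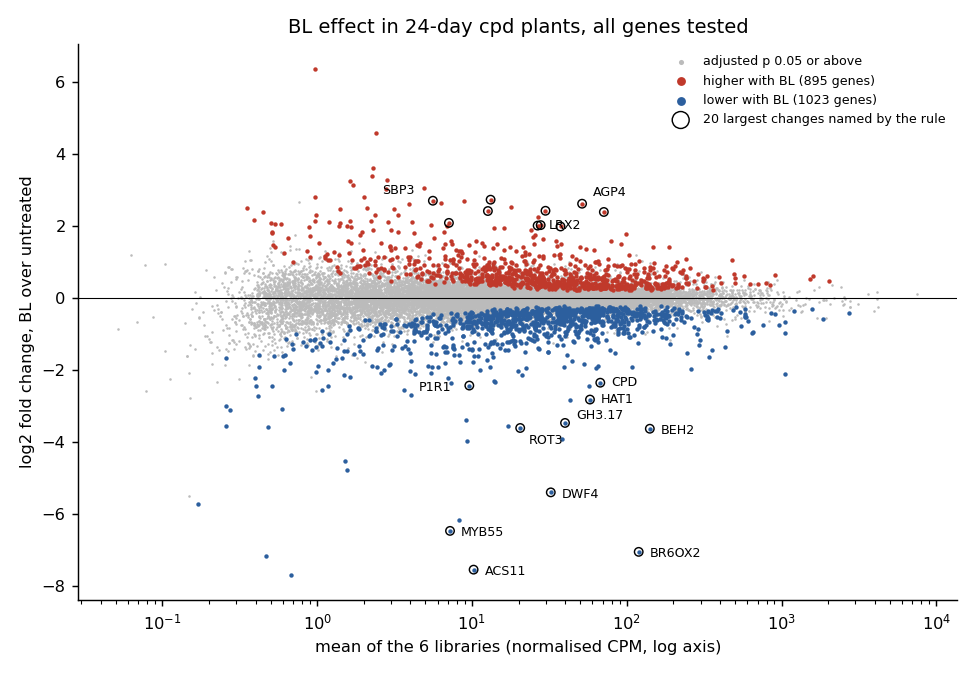
Log2 fold change with BL (treated over untreated, vertical axis) against the mean of the 6 libraries (normalised CPM, log axis) for the 19731 genes tested in 24-day cpd plants. Red points are the 895 genes higher with BL, blue points the 1023 lower, and rings mark the 10 largest rises and 10 largest falls among genes with a symbol of their own in the reference annotation (SAUR16, named there only by a synonym, is not ringed), a mean of at least 5 CPM and no overlap between groups. Ringed falls reach below -7 on the log2 scale (ACS11 at -7.53, BR6OX2 at -7.04), and the largest ringed rise, SAUR9, is at 2.73. Genes that the rule does not ring reach further upward, to 6.34 over all genes tested.

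CPD (AT5G05690, chromosome 5), the gene that names the mutant, was still transcribed. Its level was 119, 111 and 108 CPM in the untreated libraries and 20.9, 19.7 and 25.8 CPM in the treated ones. The groups did not overlap, and CPD fell 5.10-fold (log2 -2.35 ± 0.12, SE; adjusted p = 9.04e-07 in edgeR). The sources used here do not give the position of the mutation, so this level does not check the label. In the triple mutant CPD had 380 ± 44 CPM untreated and 381 ± 29 CPM with BL (SD, n = 3).

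Most other genes of the pathway fell as well. Of 7 BR synthesis genes tested, 0 rose and 6 fell, against backgrounds of 4.54% and 5.18%, and the median log2 fold change was -3.01, beside -0.0025 over all genes tested. BR6OX2, the oxidase that makes BL from castasterone, had 304, 159 and 249 CPM in untreated libraries and 1.37, 1.79 and 2.23 CPM with BL. That is a 132-fold fall (log2 -7.04 ± 0.32; adjusted p = 3.01e-07). DWF4, the side-chain hydroxylase regarded as rate-limiting, went from 75.8, 52.1 and 61.5 CPM to 1.22, 1.69 and 1.58 CPM, a 41.9-fold fall. ROT3 and CYP90D1 are related hydroxylases with overlapping roles. ROT3 had 43.9, 33.7 and 36.1 CPM untreated and 3.28, 2.13 and 3.97 CPM treated, a fall of 12.2-fold. CYP90D1 went from 33.8, 29.0 and 32.0 CPM to 7.61, 8.33 and 7.56 CPM, a fall of 4.03-fold (adjusted p = 2.34e-06). None of these genes had overlapping groups, which was also so for 31.7% of all genes tested and for 1910 of the 1918 called. Standard errors of changes to few counts, as for BR6OX2 and DWF4, are calculated back from the test and may be too small.

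BR6OX1, the second oxidase of the pair, was barely detected. It had 6, 6 and 15 counts in the untreated and 1 count in each treated library, a ratio of 8.78 with a 95% counting interval of 2.70 to 45.2. The test called it (log2 -3.01 ± 0.70; adjusted p = 0.0195), but the call was lost with replicate 3 left out (adjusted p = 0.172) and when untreated replicate 3 or any one treated replicate was left out (highest adjusted p 0.0718). DET2, the steroid reductase of an earlier step, had 17.4, 18.7 and 20.7 CPM without and 14.6, 16.2 and 16.3 CPM with BL. Its log2 change of -0.27 ± 0.08 did not pass the test (adjusted p = 0.0687), and it did with the replicate block (adjusted p = 0.0472). Of 15 sterol synthesis genes, which supply the pathway, 1 rose and 1 fell. SMT2, a sterol methyltransferase, fell 1.53-fold from 183 ± 14 to 119 ± 8.2 CPM (SD, n = 3; edgeR adjusted p = 0.00244). FK, a sterol reductase, rose 1.45-fold (adjusted p = 0.0349), a call that was lost with replicate 3 left out (0.156) and with any one of 5 libraries left out (all but treated replicate 2; highest adjusted p 0.144).

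**Figure D2:**
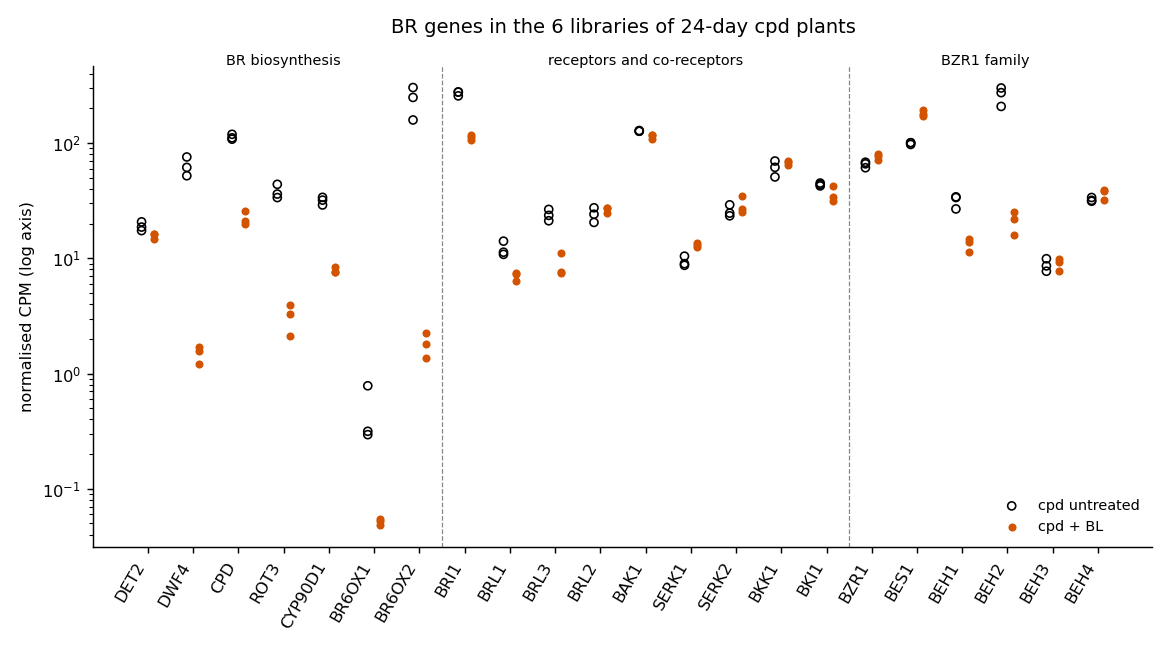
Normalised CPM (log axis) of the tested genes of BR synthesis, of the receptors and co-receptors and of the BZR1 family in the 3 untreated (open circles) and 3 BL-treated (filled circles) libraries of 24-day cpd plants, 1 point per library. All 7 synthesis genes lie lower with BL, from DET2, which did not pass the test, to BR6OX2 at 132-fold, while in the other blocks BRI1, BRL1, BRL3, BEH1 and BEH2 passed the test lower and SERK1 and BES1 higher with BL.

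Of 7 genes of BR inactivation 1 rose and 1 fell, too few to describe the list, beside 4.54% and 5.18% over all genes tested. BAS1, a cytochrome P450 that hydroxylates BL to inactive forms, had 8.41, 10.7 and 11.7 CPM in untreated and 45.0, 30.6 and 37.6 CPM in treated libraries. It rose 3.67-fold (log2 1.88 ± 0.30; edgeR adjusted p = 0.00222). SOT12, a sulfotransferase, fell from 17.5, 20.8 and 16.9 CPM to 5.55, 8.96 and 7.01 CPM, 2.56-fold (adjusted p = 0.0239). That call was lost when untreated replicate 1 or 2 or treated replicate 1 or 3 was left out (highest adjusted p 0.106).

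The receptor genes themselves were lower with BL. Of 9 tested receptor and co-receptor genes 3 fell and 1 rose. BRI1 had 278, 257 and 277 CPM in untreated and 118, 107 and 114 CPM in treated libraries, so all treated libraries lay below all untreated ones, and it fell 2.40-fold (log2 -1.26 ± 0.10; edgeR adjusted p = 2.56e-05). BRL3 went from 26.6, 21.2 and 23.6 CPM to 7.45, 11.2 and 7.66 CPM, a fall of 2.71-fold (adjusted p = 0.000635). BRL1 went from 10.8, 11.3 and 14.1 CPM to 7.29, 7.41 and 6.41 CPM, a fall of 1.71-fold (adjusted p = 0.00456, and 0.0801 with replicate 3 left out). SERK1, a co-receptor kinase, rose from 9.37 ± 0.93 to 13.1 ± 0.58 CPM (SD, n = 3; edgeR adjusted p = 0.0396). Its call was lost with replicate 3 left out (0.110) and in all leave-one-out fits but that without untreated replicate 3 (highest adjusted p 0.150). BAK1, the best-known co-receptor, had 127, 127 and 129 CPM without and 109, 118 and 117 CPM with BL, a log2 change of -0.15 ± 0.08 that did not pass the test (adjusted p = 0.243). BRL2, SERK2, BKK1 and BKI1, an inhibitor of BRI1, had log2 changes from -0.27 to 0.17 with SE from 0.14 to 0.20, and their groups overlapped. Among 13 kinases and phosphatases downstream of the receptor, 0 passed the test in either direction (2 rose with the replicate block, and 0 with replicate 3 left out).

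The BZR1 family moved in both directions, with 1 of 6 genes higher and 2 lower. BEH2, a homologue of BES1 and BZR1, had 301, 208 and 274 CPM in untreated and 16, 22 and 25.4 CPM in treated libraries, a 12.3-fold fall (log2 -3.63 ± 0.17; edgeR adjusted p = 4.82e-07). Its promoter window is the one above with 4 response elements. BEH1 fell 2.38-fold, from 34.1, 33.7 and 26.8 CPM to 13.7, 14.7 and 11.4 CPM (adjusted p = 0.000178). BES1 moved the other way, from 97.3, 101 and 101 CPM to 173, 178 and 195 CPM, a rise of 1.82-fold (log2 0.87 ± 0.09; adjusted p = 0.000148). BZR1 had 68.2, 61.1 and 66.1 CPM without and 77.0, 71.6 and 80.6 CPM with BL, a log2 change of 0.23 ± 0.07 that missed the threshold (adjusted p = 0.0595) and passed it with the replicate block (0.0247). BEH3 and BEH4 had log2 changes of 0.05 ± 0.20 and 0.17 ± 0.10. BES1, BZR1 and BEH4 each overlap a neighbouring annotated gene, on the opposite strand for BES1 and BZR1, and the sources used here do not say whether counting used strand.

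Among 13 genes of factors known to act with BES1 or BZR1, 1 rose and 5 fell. HAT1, a homeodomain factor that works with BES1 in repression, was among the 10 largest falls. It had 112, 95.6 and 96.8 CPM in untreated and 15.3, 13.7 and 14.2 CPM in treated libraries, a 7.04-fold fall with little spread (log2 -2.82 ± 0.09; edgeR adjusted p = 2.47e-08). MYBL2, another repressor that acts with BES1, fell 1.96-fold (127 ± 11 to 64.7 ± 3.1 CPM; SD, n = 3; edgeR adjusted p = 0.000285). HAT3 fell 1.5-fold (edgeR adjusted p = 0.00735).

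Growth HLH proteins act as a chain, in which PRE proteins bind inhibitors such as IBH1 that hold back bHLH activators. Of 10 tested, 3 rose and 2 fell, and with the replicate block 6 rose and 2 fell. PRE6, which promotes growth, had 27.1, 32.1 and 9.34 CPM in untreated and 137, 124 and 98.2 CPM in treated libraries. Untreated replicate 3 lay far below replicates 1 and 2, all treated libraries lay above all untreated ones, and the rise was 5.22-fold (log2 2.39 ± 0.40; edgeR adjusted p = 0.00355, and 3.09e-05 with the block). PRE5 rose 4.34-fold at a low level, from 0.441 ± 0.17 to 1.94 ± 0.27 CPM (SD, n = 3; edgeR adjusted p = 0.00132). IBH1, an inhibitor of growth that PRE proteins bind, fell 2.98-fold, from 61.0, 66.0 and 58.2 CPM to 20.9, 19.7 and 21.6 CPM (adjusted p = 1.24e-06). AIF4, a relative of IBH1, fell 1.92-fold (adjusted p = 0.000269). HBI1, the bHLH activator that IBH1 inhibits, rose 1.40-fold from 76.5, 74.8 and 64.4 CPM to 111, 95.5 and 94.1 CPM (edgeR adjusted p = 0.0118), a call lost with treated replicate 1 left out (0.0555) and with replicate 3 left out (0.0517). AIF2 and AIF1 had log2 changes of 0.56 ± 0.17 and 1.31 ± 0.39 that passed with the block only (adjusted p 0.00641 and 0.00921, against 0.0617 and 0.0551 without it), as did PAR1 (0.39 ± 0.14; 0.0485 against 0.0989). Of 10 PIF and shade genes 1 rose and 3 fell, among them the shade-induced factor HB-2 (50.6 ± 7.2 to 20.4 ± 3.3 CPM, 2.49-fold; edgeR adjusted p = 0.00744) and PIF7 (1.75-fold; edgeR adjusted p = 0.00823).

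SAUR genes, small auxin-up RNAs of which several promote cell expansion, rose in large number. Of 77 members 51 passed the filter on low counts, and 26 of these rose while 3 fell. The median log2 fold change of the 51 was 1.31. The filter keeps a gene that is high in a single group. SAUR10 passed it only through the BL-treated cpd libraries (triple mutant means 0.0788 CPM without and 0.0516 CPM with BL). Other members with low untreated levels may have done so too, so the share and the median can lean toward rises. With the replicate block 28 rose and 6 fell, and with replicate 3 left out 24 rose and 4 fell. SAUR9 had 3.36, 5.01 and 1.98 CPM in untreated and 26.0, 24.3 and 18.6 CPM in treated libraries, a rise of 6.62-fold (log2 2.73 ± 0.26; edgeR adjusted p = 9.47e-05). SAUR16 went from 1.47, 2.85 and 2.82 CPM to 16.5, 15.2 and 14.6 CPM, and SAUR10 from 0.210, 0.147 and 0.209 CPM to 4.97, 4.36 and 4.51 CPM. These were rises of 6.45-fold and 23.7-fold, the latter from untreated levels near what a count of 0 allows. SAUR22 rose 4.24-fold to 11.5 ± 1.6 CPM (SD, n = 3; edgeR adjusted p = 0.000267), but it belongs to a family of near-identical copies (SAUR19 to SAUR24), as do SAUR61 to SAUR68, so single values in those clusters are uncertain. Many of the 26 risers belong to these clusters, so their number may also hold reads shared between copies. The 26 risers had log2 changes from 0.73 to 4.57 with a median of 2.38. The 3 that fell were SAUR36, SAUR59 and SAUR77, the last 2 named after their values were seen. SAUR36, known for a role in leaf senescence, had 60.4, 49.3 and 77.6 CPM untreated and 18, 17.4 and 14 CPM treated (3.78-fold lower; edgeR adjusted p = 2.16e-05). SAUR59 went from 57.6, 54.9 and 52.9 CPM to 21.4, 23.9 and 22 CPM, and SAUR77 from 11.1, 7.32 and 10.4 CPM to 2.38, 2.42 and 2.83 CPM.

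**Figure D3:**
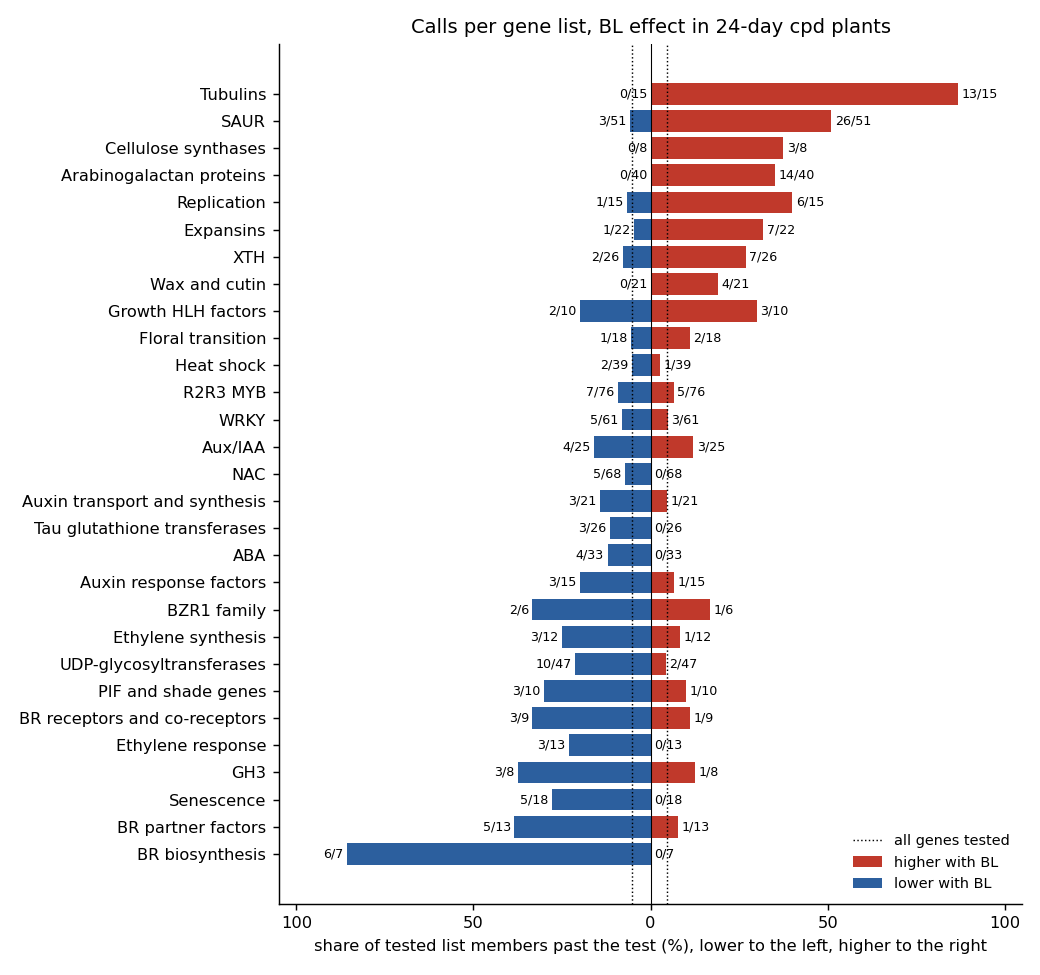
Share of the tested members of each gene list that were higher (red, right) or lower (blue, left) with BL in 24-day cpd plants, for lists with at least 3 members called. Numbers give members called over members tested, and dotted lines mark the shares over all genes tested (4.54% and 5.18%). Tubulins (13 of 15 higher) and SAUR (26 of 51 higher) stand at the top and BR synthesis (6 of 7 lower) at the bottom.

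Genes that build or loosen the cell wall rose in several families. Of 22 expansins, proteins that loosen walls, 7 rose and 1 fell, with a median log2 change of 0.50, and with replicate 3 left out 3 rose and 2 fell. EXPA11 had 5.88, 5.40 and 4.65 CPM in untreated and 18, 13.7 and 15.7 CPM in treated libraries (2.97-fold; edgeR adjusted p = 0.000188), and EXPA8 rose 2.80-fold (0.00159). EXLA2 rose 2.42-fold from 6.11 ± 0.65 to 14.8 ± 1.8 CPM (SD, n = 3; edgeR adjusted p = 0.00957, and 0.0690 with replicate 3 left out). The single expansin that fell, EXPA16, was named after its values were seen and went from 19.9, 15.1 and 14.1 CPM to 10.1, 10.3 and 10.2 CPM.

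Xyloglucan enzymes (XTH), which cut and rejoin wall polymers, went both ways, with 7 of 26 higher and 2 lower (9 and 6 with the replicate block) and a median log2 change of 0.09. XTH8 had 11.2, 9.87 and 7.10 CPM untreated and 63.2, 42.1 and 45.6 CPM treated, a 5.35-fold rise (log2 2.42 ± 0.20; edgeR adjusted p = 3.55e-05). XTH4, a major wall enzyme of growing tissue, rose 2.09-fold from 304, 296 and 335 CPM to 778, 545 and 634 CPM (adjusted p = 0.000939). XTH19 rose 4.06-fold (adjusted p = 0.0324), but this call was lost with any one of the 6 libraries left out (adjusted p 0.0513 to 0.125) and kept with replicate 3 left out (0.0250). TCH4, a touch-inducible XTH, rose 1.51-fold from 1277 ± 114 to 1934 ± 159 CPM (SD, n = 3; edgeR adjusted p = 0.0250). Its call was lost without untreated replicate 1 or 2 or treated replicate 1 or 3 (highest adjusted p 0.105). The 2 that fell were XTH24, from 1462, 1488 and 1230 CPM to 675, 757 and 706 CPM (edgeR adjusted p = 0.000442), and XTH15, named after its values were seen, which fell 4.33-fold (edgeR adjusted p = 0.00184).

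Arabinogalactan proteins are heavily glycosylated proteins of the cell surface. Of 40 tested of 50 members, 14 rose and 0 fell (17 and 1 with the replicate block), and 29 of the 40 log2 changes were above 0, with a median of 0.39 and a lowest value of -1.83. AGP4 had 14.3, 12.5 and 16.6 CPM in untreated and 85.1, 78.8 and 102 CPM in treated libraries, a 6.12-fold rise (log2 2.61 ± 0.22; edgeR adjusted p = 3.67e-05). AGP9 went from 46.5, 43.7 and 43.9 CPM to 138, 119 and 202 CPM (3.42-fold) and FLA7, which carries a fasciclin domain, from 13.2, 14.3 and 14.5 CPM to 49.9, 36.6 and 45.2 CPM (3.13-fold). LRX2, a leucine-rich repeat extensin, rose 4.02-fold from 10.2, 10.3 and 11.2 CPM to 41.5, 30.0 and 56.3 CPM (edgeR adjusted p = 0.000951), and was the 1 gene of 12 extensins and proline-rich proteins to pass. ENODL8, an early nodulin-like protein, rose 3.95-fold (adjusted p = 0.00012). AGP4 overlaps another annotated gene on the opposite strand over 585 of its 974 bases, a gene that is not in the count table.

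Tubulins are the subunits of microtubules. All 15 members were tested, 13 rose and 0 fell, and 15 of 15 log2 changes were above 0, with a median of 0.52. With the replicate block 14 rose, and with replicate 3 left out 10 did. TUB1 had 5.04, 3.49 and 3.5 CPM without and 24.9, 19.9 and 19.2 CPM with BL, a 5.32-fold rise (log2 2.41 ± 0.25; edgeR adjusted p = 0.000151). Other members rose less. TUB8 went from 44.3, 50.6 and 52.1 CPM to 106, 98.8 and 104 CPM (2.1-fold), and TUA4 from 231, 227 and 216 CPM to 331, 346 and 385 CPM (1.58-fold; edgeR adjusted p = 0.000684). Tubulin genes include near-identical pairs, such as TUA2 with TUA4, and the sources used here do not say how shared reads were counted. Of 8 cellulose synthases 3 rose and 0 fell. CESA2 rose 1.46-fold from 197 ± 12 to 288 ± 30 CPM (SD, n = 3; edgeR adjusted p = 0.00906). CESA5 rose 1.94-fold (adjusted p = 0.0162, and 0.0641 without treated replicate 1). CESA1 rose 1.28-fold (edgeR adjusted p = 0.0367), a call lost with replicate 3 left out (0.117) and in every leave-one-out fit but that without treated replicate 3 (highest adjusted p 0.125). The 11 genes tested for secondary walls held 0 calls in edgeR, with the block or without replicate 3.

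SBP3, a selenium-binding protein gene, rose from 1.16, 1.18 and 2.14 CPM to 9.51, 9.30 and 10.3 CPM, 6.48-fold (log2 2.70 ± 0.24; edgeR adjusted p = 6.7e-05). P1R1 was the one gene among the 10 largest falls in none of the lists, at 17.2, 15.1 and 16.4 CPM without and 2.96, 3.44 and 2.61 CPM with BL (5.38-fold lower; edgeR adjusted p = 6.7e-05).

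Auxin genes changed in opposite directions. Of 25 Aux/IAA repressor genes, 3 rose and 4 fell (5 and 4 with the replicate block). IAA7 fell 2.23-fold, from 411 ± 16 to 184 ± 13 CPM (SD, n = 3; log2 -1.16 ± 0.10; edgeR adjusted p = 5.79e-05). IAA2 fell 1.91-fold from 861 ± 69 to 450 ± 40 CPM and IAA26 1.90-fold from 125 ± 2.3 to 65.8 ± 4.5 CPM (SD, n = 3). IAA19, AXR3 and SHY2, named after their values were seen, had log2 rises of 1.38, 0.84 and 1.12. GH3 enzymes, which conjugate auxin to amino acids, had 1 of 8 higher and 3 lower. GH3.17 had 81.4, 73.5 and 64.8 CPM in untreated and 5.49, 7.31 and 7.07 CPM in treated libraries, a fall of 11-fold (log2 -3.46 ± 0.16; edgeR adjusted p = 2.95e-07). GH3.5 fell 3.13-fold from 477, 486 and 582 CPM to 145, 153 and 196 CPM, and DFL1 fell 2.23-fold from 102 ± 15 to 45.6 ± 6.7 CPM (SD, n = 3). LAX3, an auxin influx carrier, fell 4.95-fold from 22, 21.8 and 25.4 CPM to 4.97, 4.60 and 4.40 CPM (edgeR adjusted p = 3.63e-05). It belonged to the auxin transport and synthesis list, of which 1 of 21 rose and 3 fell (2 and 7 with the replicate block). Of 15 auxin response factors 1 rose and 3 fell. ARF6 fell 1.69-fold (edgeR adjusted p = 0.000292) and ARF11 rose 1.64-fold (0.00189).

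The ethylene synthesis gene ACS11 showed the largest fall of all named genes. ACS enzymes make the direct precursor of ethylene. ACS11 had 446, 309 and 433 counts in untreated and 2 counts in each treated library (23.4, 15.2 and 22.6 against 0.106, 0.0968 and 0.109 CPM). The ratio of summed counts was 193 with a 95% counting interval of 88.4 to 527, and the fitted change was log2 -7.53 ± 0.28 (edgeR adjusted p = 5.67e-08). ACS4 moved the other way, from 0.998, 1.57 and 0.731 CPM to 7.29, 6.68 and 6.25 CPM (6.07-fold; edgeR adjusted p = 0.000262). Of 12 ethylene synthesis genes 1 rose and 3 fell. Of 13 ethylene response genes 0 rose and 3 fell (1 with replicate 3 left out), and the receptor gene ERS1 fell 1.43-fold from 450 ± 30 to 314 ± 9.2 CPM (SD, n = 3; edgeR adjusted p = 0.00202).

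Of 33 abscisic acid genes 0 rose and 4 fell (7 with the replicate block, 2 with replicate 3 left out). The receptor PYL5 fell 2.03-fold from 279, 277 and 246 CPM to 132, 122 and 141 CPM (edgeR adjusted p = 4.42e-05), and the transcription factor ABI5 fell 2.65-fold from 12.8, 13.6 and 17.2 CPM to 5.12, 5.57 and 5.76 CPM (edgeR adjusted p = 0.000295). ABI4, which the series title names, had 0 counts in all 6 libraries and was not tested, so that up to 0.167 CPM is allowed in a library. Of 14 gibberellin genes 1 rose and 1 fell. GA20OX1, an enzyme of gibberellin synthesis, rose 4.02-fold from 0.611 ± 0.31 to 2.49 ± 0.56 CPM (SD, n = 3; edgeR adjusted p = 0.0148, and 0.065 without treated replicate 1). GASA1 fell 1.89-fold from 584 ± 44 to 310 ± 37 CPM (SD, n = 3; edgeR adjusted p = 0.000292). CKX5, which degrades cytokinin, fell 2.49-fold (edgeR adjusted p = 0.000988) and was the 1 gene called of 14 cytokinin genes. Of 33 jasmonate genes 2 rose and 0 fell, and of 21 salicylate and defence genes 0 passed in either direction (2 rose and 2 fell with the replicate block).

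Some single regulators of other processes fell. MYB55 had 259, 227 and 346 counts in untreated and 2, 0 and 7 counts in treated libraries, a ratio of 90.1 with a 95% counting interval of 47.3 to 198 (fitted log2 -6.46 ± 0.46; edgeR adjusted p = 1.26e-05). MYB122, an activator of indole glucosinolate synthesis, fell 2.43-fold from 19.5, 16.7 and 25.6 CPM to 7.03, 7.80 and 10.7 CPM (edgeR adjusted p = 0.00614). MYB56, also called BRAVO, fell 4.53-fold from 2.67 ± 0.60 to 0.583 ± 0.082 CPM (SD, n = 3; edgeR adjusted p = 0.0042, and 0.0578 with replicate 3 left out). In all, 5 of 76 R2R3 MYB genes rose (6.58%) and 7 fell (9.21%), beside 4.54% and 5.18% over all genes tested. With replicate 3 left out the counts were 0 and 4. Of 68 NAC genes 0 rose and 5 fell (7.35%), with 1 and 9 in the replicate block. The shares of falls in both families were thus not far above that over all genes. RD26, a stress-related NAC factor known to oppose BR-driven growth, fell 2.50-fold from 94.5, 84.3 and 72.6 CPM to 29.0, 41.0 and 30.4 CPM (edgeR adjusted p = 0.00422), and NAC047 fell 1.96-fold from 124, 107 and 144 CPM to 64.0, 63.6 and 63.4 CPM. Of 61 WRKY genes 3 rose and 5 fell (5 and 8 with the replicate block), shares near those over all genes. WRKY15 fell 1.62-fold from 220 ± 19 to 136 ± 18 CPM (SD, n = 3; edgeR adjusted p = 0.00461).

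Senescence genes fell where they passed the test. Of 18 tested 0 rose and 5 fell (1 and 9 with the replicate block, 0 and 2 with replicate 3 left out), and the median log2 change was -0.37. PAO, an enzyme of chlorophyll breakdown, fell 1.42-fold from 133, 127 and 134 CPM to 88.3, 93.0 and 96.5 CPM (edgeR adjusted p = 0.000784), and ORE1, a NAC regulator of leaf ageing, fell 1.5-fold from 186 ± 32 to 124 ± 9.5 CPM (SD, n = 3; edgeR adjusted p = 0.00981, and 0.0527 without treated replicate 1). UDP-glycosyltransferases, which attach sugars to small molecules, had 2 of 47 higher and 10 lower (3 and 16 with the replicate block). UGT87A2 fell 2.1-fold from 149, 140 and 139 CPM to 56.2, 78.9 and 68.4 CPM (edgeR adjusted p = 0.000739). UGT73B4 fell 3.32-fold, but its reference model lies within that of a neighbour on the same strand, so its reads cannot be told apart from the neighbour's by position. Of 26 tau glutathione transferases 0 rose and 3 fell (0 and 5 with the block, 0 and 1 with replicate 3 left out).

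DNA replication genes changed mostly upward, in a count that moved with replicate 3. Of 15 tested 6 rose and 1 fell, with a median log2 change of 0.48, but with replicate 3 left out 1 rose and 0 fell. CDT1A, a licensing factor, had 2.73, 2.75 and 3.03 CPM untreated and 6.55, 5.86 and 4.78 CPM treated (2.02-fold; edgeR adjusted p = 0.00608), and MCM3, a helicase subunit, rose 1.67-fold from 4.54 ± 0.42 to 7.59 ± 0.71 CPM (SD, n = 3; edgeR adjusted p = 0.00586, and 0.0586 with replicate 3 left out). Of 32 mitosis genes 1 rose and 1 fell, 3.1% each and below the shares over all genes. SPCH, which starts the stomatal lineage, rose 1.90-fold from 8.41, 10.1 and 7.31 CPM to 17.4, 15.1 and 16.5 CPM (edgeR adjusted p = 0.00209). Its list of 17 held 1 rise and 1 fall, 5.88% each and near the shares over all genes. Of 21 wax and cutin genes 4 rose and 0 fell (7 and 0 with the replicate block), and KCS10, a fatty acid elongase of the epidermis, rose 1.33-fold from 153 ± 3.6 to 204 ± 18 CPM (SD, n = 3; edgeR adjusted p = 0.00637). Photosystem, light-harvesting and Rubisco genes held 1 rise and 1 fall among 44, the phenylpropanoid and lignin list 0 of 16 in either direction (0 and 1 with the block), and flowering-time genes 2 rises and 1 fall of 18, none of them called with replicate 3 left out.

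Short elements near the gene start were counted over windows of the same 300 bases in 19513 of the tested genes. The E-box CATGTG, read on both strands, was found in 12.8% of all windows, in 20.9% of those of genes that rose and in 33.0% of those that rose at least 2-fold. For genes that fell the shares were 15.2%, and 18.5% at 2-fold. The BR response element (CGTGTG or CGTGCG, both strands) ran the other way, at 8.57% of all windows, 12.8% of genes that fell and 15.1% of those that fell at least 2-fold, against 6.65% and 4.47% of genes that rose. The G-box CACGTG, which can overlap the response element as in BEH2, had 8.83% over all, 13.0% in falling and 6.20% in rising genes. The coupling element CACCG, known as a binding sequence of ABI4, was found in 15.1% of all windows, 17.1% of rising and 14.4% of falling genes, and in 12.3% and 11.6% of those changed at least 2-fold. No test was made of these shares, and a match is a string of letters, not a bound site. Of the 183 genes at least 2-fold higher 25 were SAUR genes, many of them in the clusters of near-identical copies. Whether the windows of such copies are alike was not tested, so windows may not count as separate cases. Among the 10 largest falls only BEH2 and ACS11, whose windows are shown above, carried the response element, while CPD, GH3.17 and P1R1 carried the E-box. None of the 7 BR synthesis genes carried the response element in its window. Among the 10 largest rises SAUR9, PRE6, SAUR22, LRX2 and ENODL8 carried the E-box, and XTH8 and ENODL8 the response element. The shares therefore do not describe most of the largest falls, and single genes went against them.

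**Figure D4:**
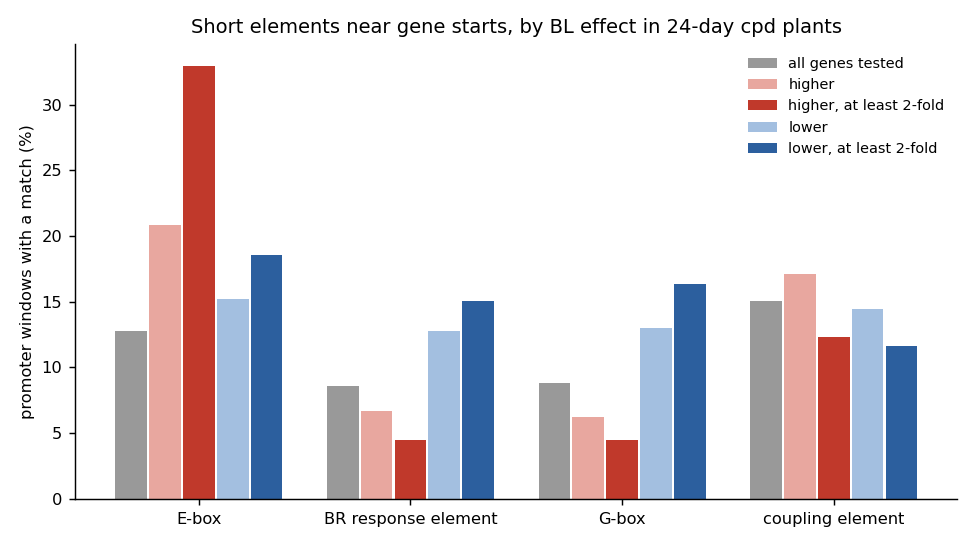
Percent of promoter windows (250 bases before to 50 from the gene start) with at least 1 match of each element, for all 19513 windows (grey), genes higher with BL (light red; dark red at least 2-fold) and genes lower with BL (light blue; dark blue at least 2-fold). The E-box is at 33.0% in genes at least 2-fold higher against 12.8% over all, and the BR response element is at 15.1% in genes at least 2-fold lower against 8.57%.

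The triple mutant received BL at the same age. No gene passed the test there in edgeR (0 of 19731), and DESeq2, with its own filter, called 0 as well. In edgeR 773 genes had an unadjusted p under 0.05, against 4810 in cpd. The 773 are fewer than this threshold would pass among all genes tested if none changed. Whether the response differed between the genotypes was tested directly, as the BL effect in the triple mutant minus that in cpd, which shares the cpd libraries with the effect itself. The value was higher in the triple mutant for 314 of 19731 genes (1.59%) and lower for 229 (1.16%), or 2.75% in either direction, 657 and 548 with the replicate block and 146 and 109 with replicate 3 left out. DWF4 had 72.1 ± 7.0 CPM untreated and 64.7 ± 4.6 CPM with BL in the triple mutant (SD, n = 3), a log2 change of -0.16 ± 0.13 against -5.39 ± 0.18 in cpd, and a difference of 5.23 ± 0.22 (edgeR adjusted p = 3.74e-07). BR6OX2 had 227 ± 53 and 262 ± 40 CPM there, and BEH2 316 ± 6.9 and 294 ± 18 CPM. Their differences were log2 7.25 ± 0.39 and 3.52 ± 0.23 (adjusted p = 2.7e-06 and 1.35e-05). PRE6 had 21.3 ± 6.5 and 15.8 ± 5.5 CPM, with a difference of -2.82 ± 0.57 (adjusted p = 0.0226, from 0.0507 to 0.0647 when treated cpd replicate 1 or 2, untreated triple-mutant replicate 1 or 2 or treated triple-mutant replicate 3 was left out).

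The difference was also counted by list, beside 1.59% of all genes higher in the triple mutant and 1.16% lower. It passed the test for 5 of 7 BR synthesis genes, all higher. It also passed for 9 of 15 tubulins and 13 of 40 arabinogalactan protein genes (all lower), and for 12 of 51 SAUR genes (3 higher, 9 lower). Of the 138 named genes tested it passed for 64 (38 higher and 26 lower), and for 93 with the replicate block. For the other genes a difference was not shown. BRL1 is an example, with a difference of 0.60 ± 0.20 (edgeR adjusted p = 0.152) although its fall in cpd was called, and so is XTH19 (difference -3 ± 0.73; edgeR adjusted p = 0.055, and 0.0144 with the replicate block).

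**Figure D5:**
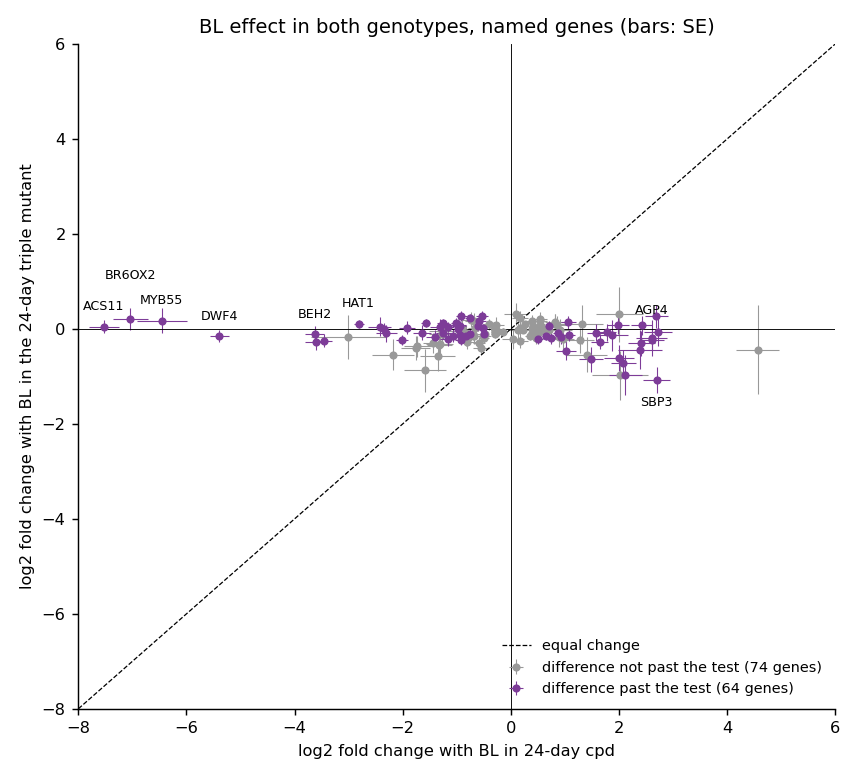
Log2 fold change with BL in the 24-day triple mutant (vertical axis) against that in 24-day cpd (horizontal axis) for the 138 named genes tested, with SE bars and the line of equal change (dashed). Purple points are the 64 genes whose difference between genotypes passed the test, and grey points the other 74. Values in cpd run from -7.53 (ACS11) to 4.57 (SAUR10), and 0 genes passed the test in the triple mutant itself.

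Age was compared in a fit of all 24 libraries, in which the BL effect at 24 days minus that at 7 days was tested in 19935 genes. The value was higher at 24 days for 1099 of these (5.51%) and lower for 830 (4.16%), or 9.68% in either direction, 1670 and 1276 with the replicate block. The 7-day libraries held fewer counts (10180880 to 12531699) and formed a set of their own, so age and library set cannot be told apart. Several growth genes rose at both ages and less at 24 days. AGP4 rose by log2 4.45 ± 0.28 at 7 days and 2.61 at 24 days, a difference of -1.84 ± 0.36 (edgeR adjusted p = 0.00226). XTH8 rose by 4.2 and 2.42 (difference -1.78 ± 0.28; edgeR adjusted p = 0.000417), and PRE6 by 4.52 and 2.39 (-2.13 ± 0.49; edgeR adjusted p = 0.00791). Untreated levels of these 3 genes were 1.26, 2.54 and 3.55 CPM at 7 days against 14.5, 9.41 and 22.8 CPM at 24 days. SAUR9, TUB1 and LRX2 had differences of 0.07 ± 0.38, -0.55 ± 0.30 and 0.78 ± 0.30, none past the test.

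BR synthesis genes fell steeply at both ages. The differences of DWF4 (0.07 ± 0.28), BR6OX2 (0.06 ± 0.46) and CPD (0.36 ± 0.14) did not pass the test, although that of CPD did with the replicate block (edgeR adjusted p = 0.043 against 0.114). ROT3 fell by 5.33 ± 0.21 on the log2 scale at 7 days and by 3.61 at 24 days (difference 1.72 ± 0.30; edgeR adjusted p = 0.000959), and CYP90D1 fell by 2.98 ± 0.12 and 2.01 (0.97 ± 0.16; edgeR adjusted p = 0.000552). BRI1 went the other way, with falls of 0.77 ± 0.08 at 7 and 1.27 at 24 days on the log2 scale (difference -0.50 ± 0.11; edgeR adjusted p = 0.00632). PAR2, an HLH factor that restrains shade growth, rose by 2.22 ± 0.19 at 7 days and had a log2 change of 0.09 at 24 days (difference -2.14 ± 0.26; edgeR adjusted p = 3.7e-05). GASA1 differed in direction, with a rise of 0.42 ± 0.09 at 7 days and a fall of 0.92 at 24 days (difference -1.34 ± 0.13; edgeR adjusted p = 2.14e-06). MYB122 fell by 3.53 ± 0.21 at 7 days and by 1.28 at 24 days (difference 2.25 ± 0.28; edgeR adjusted p = 3.98e-05).

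The age difference was also counted by list, beside 5.51% of all genes higher and 4.16% lower at 24 days. Of 44 photosystem, light-harvesting and Rubisco genes the difference was lower at 24 days for 19, with median log2 effects of 0.34 at 7 and -0.09 at 24 days. Of 16 phenylpropanoid and lignin genes it was higher for 7 (medians -1.04 and -0.13), and of 16 indole glucosinolate genes it was higher for 8 (medians -0.80 and -0.05). Replication genes had medians of 1.45 and 0.47 and a lower value at 24 days for 8 of 15. Of 137 named genes tested the age difference passed for 37 (12 higher and 25 lower at 24 days). It passed for 54 with the replicate block and for 48 with limma voom and a spread estimated per age. Many of these genes were named for their BL effect in 24-day cpd, which is part of the difference, so these counts cannot be set against the share over all genes.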

How the data were processed

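Messenger RNA of Arabidopsis seedlings was measured by RNA-seq, with Trizol extraction and an Illumina TruSeq RNA kit per the labels' protocols. The values are whole-number read counts per locus, which the authors deposited as 1 table of 32678 loci and 24 libraries. The submitters' processing notes name HTSeq 0.9.1, HISAT2 2.1.0, Trimmomatic 0.36 and, as build, TAIR10, and the sources used here do not state their roles, settings or use of strand. Of the loci 31912 were found in RefSeq's TAIR10.1 annotation, from which symbols and promoter windows were taken. Of 139 named genes 14 overlap another annotated gene by at least 10% of their length, so their counts can hold reads of the other gene. Members of SAUR19 to SAUR24 and SAUR61 to SAUR68 and of some tubulin pairs are near-identical, and their single values are uncertain.

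Groups came from the labels. Counts were TMM-normalised and tested with edgeR 4.0.16 (R 4.3.3; quasi-likelihood test, filterByExpr with a minimum count of 10) over the 12 libraries of 24 days, and p-values were adjusted over all genes tested by Benjamini-Hochberg, with a threshold of 0.05. The age difference was fitted over all 24 libraries. Standard errors were calculated back from the F statistic. CPM are TMM-normalised. Counting intervals are at 95%, cover counting error only, and a count of 0 allows up to 3 counts. The scripts were tested on simulated data. Alternatives were the replicate block, RLE factors, no filter, the 6 libraries alone, a 2-fold bound, DESeq2 1.42.0, limma 3.58.1 (voom) for age, and leaving out libraries.

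Over 19731 genes, deviations from the group means correlated at 0.228, 0.252 and 0.408 between untreated and treated libraries numbered 1, 2 and 3. Libraries of unlike number gave -0.310 to 0.112. The contrast was widest for replicate 3, which stood apart in both groups: its pairs with replicates 1 and 2 gave -0.310 to -0.200. Replicates 1 and 2 paired across numbers gave 0.112 and 0.0561, a smaller contrast. The replicate block assumes that the numbers pair the samples. That assumption comes from the same data, since the labels do not say what a number marks, so results with the block depend on it.

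The genes and 52 gene lists were chosen with earlier results of these data known. Named genes are CPD, BRI1, BRL1, BRL3 and ABI4, the 10 largest rises and falls past the test with a symbol of their own in the reference annotation (genes named only by a synonym, such as SAUR16, were not eligible), a mean of at least 5 CPM and no overlap between groups, the called members of each list with the lowest adjusted p (at most 3), and all tested members of the lists of BR synthesis, receptors, the BZR1 family and growth HLH factors. Any other gene is said to be chosen after its values were seen. The result of 1 gene that this rule takes is not reported here.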

Additional observations from a re-analysis of the deposited data

Results flagged for a closer look

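Some genes are listed here because their response to BL differed between genotypes or ages in a test of the difference itself, among genes singled out by the size of their response in 24-day cpd or by their role in BR synthesis and signalling. Differences are on the log2 scale with SE, from edgeR's quasi-likelihood test. For the BL effect in the triple mutant minus that in cpd at 24 days (3 libraries in each of 4 groups), adjusted p ran from 3.74e-07 to 0.0226, and the comparison shares its cpd libraries with the BL effect that chose many of the genes. Positive values mean that a fall in cpd was smaller or missing in the triple mutant. Among BR synthesis genes these were CPD (2.35 ± 0.16), BR6OX2 (7.25 ± 0.39), DWF4 (5.23 ± 0.22), ROT3 (3.33 ± 0.25) and CYP90D1 (1.79 ± 0.16). Among receptor, transcription factor and HLH genes they were BRI1 (1.38 ± 0.14), BEH2 (3.52 ± 0.23), BEH1 (1.17 ± 0.18), HAT1 (2.93 ± 0.13), IBH1 (1.70 ± 0.12) and AIF4 (0.81 ± 0.15). BRI1 is itself mutated in the triple mutant, where it had 65.3 ± 4.2 CPM without and 70.7 ± 10 CPM with BL (SD, n = 3), below the 118, 107 and 114 CPM of the treated cpd libraries. The others were ACS11 (7.58 ± 0.33), MYB55 (6.63 ± 0.55), GH3.17 (3.21 ± 0.20) and P1R1 (2.47 ± 0.29). Negative values belonged to genes that rose in cpd. Growth regulators among them were SAUR9 (-2.80 ± 0.38), SAUR22 (-2.81 ± 0.37), PRE6 (-2.82 ± 0.57) and PRE5 (-3.09 ± 0.53). Genes of the cell surface, wall and cytoskeleton were AGP4 (-2.84 ± 0.30), XTH8 (-2.34 ± 0.28), TUB1 (-2.71 ± 0.36), LRX2 (-2.62 ± 0.39) and ENODL8 (-1.89 ± 0.28). The remaining ones were SBP3 (-3.78 ± 0.37) and BES1 (-0.96 ± 0.13). The call of PRE6 was lost with any one of 5 libraries left out (adjusted p 0.0507 to 0.0647), and those of AIF4 and PRE5 were lost with replicate 3 left out (0.086 and 0.0595).

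For the BL effect at 24 days minus that at 7 days in cpd (3 libraries in each of 4 groups), adjusted p ran from 3.7e-05 to 0.0367. Here too the comparison contains the 24-day BL effect that chose many of the genes. Positive values were those of ROT3 (1.72 ± 0.30), CYP90D1 (0.97 ± 0.16) and BAK1 (0.38 ± 0.08). Negative values were those of BRI1 (-0.50 ± 0.11), SBP3 (-2.56 ± 0.43), AGP4 (-1.84 ± 0.36), XTH8 (-1.78 ± 0.28), PRE6 (-2.13 ± 0.49), ENODL8 (-0.81 ± 0.24), BES1 (-0.37 ± 0.11), BEH1 (-0.64 ± 0.16), HBI1 (-0.64 ± 0.12), PAR1 (-0.64 ± 0.17), PAR2 (-2.14 ± 0.26) and AIF3 (-0.49 ± 0.11). The untreated 7-day mean of SBP3, 0.218 CPM, lay below the 0.242 to 0.294 CPM that 3 counts stand for in those libraries, so the size of its difference is uncertain. Not all of these 15 calls were stable. With 1 cpd library left out at a time, from 0 (without treated 24-day replicate 3) to 4 (without untreated 7-day replicate 1) were lost. All 15 held with replicate 3 left out of every 24-day group. The 7-day and 24-day libraries also differed in depth, whose part in these differences was not tested.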

How the results depend on the processing

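In 24-day cpd 895 genes were higher and 1023 lower with BL. With the replicate block, the pairing of libraries by number, the counts were 1476 and 1574, and 1390 and 1593 when the 6 cpd libraries were fitted alone with that block. With replicate 3 left out of every group they were 449 and 617, and 32 and 50 passed a test against a 2-fold bound. Leaving out 1 cpd library at a time gave 407 to 653 higher and 510 to 975 lower. Both counts were lower by more than 1.5 times without untreated replicate 1 or 2 or treated replicate 1 or 2. Of gene list members 96 were lower, and 150 with the block. The genotype difference (314 higher, 229 lower in the triple mutant) became 657 and 548 with the block, 146 and 109 with replicate 3 left out, 578 and 486 in DESeq2, and 193 to 390 and 127 to 315 with 1 library left out. The age difference (1099 higher, 830 lower at 24 days) became 1670 and 1276 with the block and 1637 and 1401 with replicate 3 left out. With 1 library left out it ranged over 737 to 1335 higher and 464 to 1098 lower.

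Of 124 named genes that passed the test for BL in 24-day cpd, all 124 passed with the replicate block, 92 with replicate 3 left out and 82 with any one library left out. The block changed no other call among named genes in this comparison than those of DET2, BZR1, PAR1, AIF1 and AIF2. A pair of uncalled genes changed sign. The log2 change of BEH3 was -0.0394 without untreated replicate 1 and -0.0272 without treated replicate 2 (up to 0.1463 without untreated replicate 3). That of PAR2 was -0.1142 with replicate 3 left out and -0.0882 without untreated replicate 3 (up to 0.1977 without untreated replicate 2). The cause of these changes was not tested. Depth limits genes near the 0.146 to 0.167 CPM that a count of 0 allows, such as BR6OX1 in treated libraries.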
